A study of Mus musculus with 4 samples.

Results

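The comparison described here sets male *IkbkbΔhep* liver against male Wt liver, in mice kept on HCFD, a Western diet rich in cholesterol and saturated fat. It is the male pair of a series of 4 arrays, with 1 array of pooled RNA for male *IkbkbΔhep*, male Wt, female *IkbkbΔhep* and female Wt. All mice were fed HCFD for 20 weeks from 2.5 months of age. Their strain is C57BL/6J. *IkbkbΔhep* mice carry floxed *Ikbkb* alleles and a Cre transgene that is active in hepatocytes, whose promoter the methods do not name. Wt mice carry the same floxed alleles without Cre, so both groups are floxed and no group carries Cre without the floxed alleles. The number of mice in a pool cannot be read with certainty from the study's wording. The genes are those with a single gene symbol and a mean log2 signal above 5.83 on the 2 male arrays, which takes 13198 of 19920 genes. The level of 5.83 is the 95th percentile of 1210 probe sets for olfactory and vomeronasal receptor genes, which are not active in liver. A gene's log2 ratio is its log2 signal in male *IkbkbΔhep* minus that in male Wt. With 1 array a side there is no replicate error and no test, so each fold below is a difference between 2 pools and not an estimate of the effect of genotype.

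IKKβ, the product of *Ikbkb*, is the kinase that phosphorylates the inhibitory IκB proteins and marks them for degradation. NF-κB then enters the nucleus and switches on genes of inflammation and cell survival, among them genes for IκBα and A20 that shut the pathway down again. In liver the pathway acts in hepatocytes, which make the acute phase proteins of plasma, and in Kupffer cells, endothelial cells and infiltrating leukocytes. The Cre transgene targets hepatocytes, whereas the arrays hold RNA of the whole liver. For any gene of a minor cell type, fewer cells of that type and less RNA per cell cannot be told apart in such RNA.

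The male arrays are alike in their overall signal, with a median log2 signal of 6.27 on each over 35556 probe sets. Over the receptor probe sets the log2 ratio has an SD of 0.20, and 1.32% of them differ by at least 1.5-fold and 17.1% by at least 1.2-fold. Over the 13198 genes the SD is 0.15, the median ratio is -0.01, and the central 95% of ratios run from -0.29 to 0.28. The spread falls from 0.17 in the dimmest of 4 equal bins of genes to 0.12 in the brightest, and 19 of the genes at 1.5-fold are in the dimmest bin against 6 in the brightest. Hepatocyte markers are near the top of the scale on both arrays. *Alb*, encoding albumin, has log2 signals of 13.63 and 13.65 in *IkbkbΔhep* and Wt, and none of 17 hepatocyte markers differs by 1.2-fold. The Y-linked gene *Eif2s3y* is bright on both arrays, at 8.79 and 8.70, while *Xist* lies below the receptor level on both.

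At 1.5-fold or more, 22 genes are higher in male *IkbkbΔhep* than in male Wt liver (0.167% of the genes) and 30 are lower (0.227%). At 1.2-fold or more, 388 genes are higher (2.94%) and 456 are lower (3.46%). Only 2 of the 22 and 10 of the 30 reach 2-fold. The extremes are *Gdpd3*, encoding a glycerophosphodiester phosphodiesterase, at least 6.32-fold higher, and *Ctse*, encoding the aspartic protease cathepsin E, at -4.22. In 3 of the 22 and 9 of the 30 genes one of the signals lies below 5.83, and the fold is then given as a lower bound against that level, which can be under 1.5-fold.

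**Figure D1:**
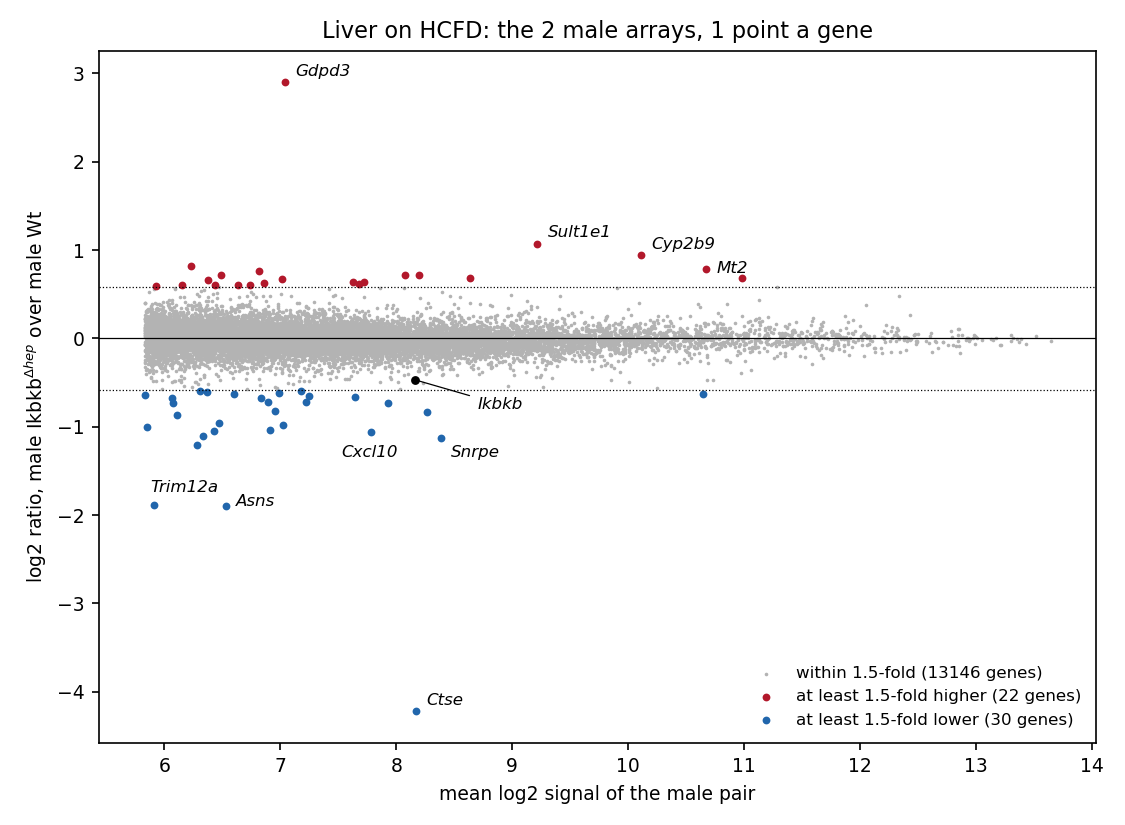
Log2 ratio of male *IkbkbΔhep* over male Wt (y axis) against the mean log2 signal of the pair (x axis), with 1 point for each of 13198 genes. Red and blue points are the 22 genes higher and the 30 genes lower by at least 1.5-fold (dotted lines), and the black point is *Ikbkb*. *Gdpd3* and *Ctse* lie far from all others, and the grey cloud narrows as signal grows.

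*Ikbkb* itself has log2 signals of 7.93 and 8.40 in the *IkbkbΔhep* and Wt pools, a ratio of -0.47. The deleted gene is thus 1.38-fold lower, with a clear signal left. It is read by 1 probe set whose exons could not be checked, and the RNA also holds *Ikbkb* transcripts of cells that Cre does not reach. Around *Ikbkb* none of the 20 nearest measured genes differs by 1.5-fold. At 1.2-fold 3 differ, beside 2.94% of all genes higher and 3.46% lower. The closest of the 3 is *Plat*, encoding tissue plasminogen activator, with a ratio of -0.34 and signals of 5.83 and 6.17 near the receptor level.

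The genes of the IKK and NF-κB pathway are lower more often than higher in male *IkbkbΔhep* liver. Of 27 listed genes above the level, 22 have ratios below 0, against 52.9% of all genes, and their median is -0.13, against -0.01. At 1.2-fold 6 are lower and 0 are higher, against 3.46% and 2.94% of all genes, and at 1.5-fold 1 is lower, against 0.227%. These shares of all genes also stand beside the counts of every list below. *Ikbkb*, the deleted gene, is one of the 22 and of the 6. The gene at 1.5-fold is *Nfkbiz*, encoding the nuclear IκB protein IκBζ, with log2 signals of 6.88 in *IkbkbΔhep* and 7.47 in Wt, and with a loess correction it is at -0.58, just short of 1.5-fold. *Nfkbia*, encoding IκBα, has signals of 8.51 and 8.91 and is 1.32-fold lower. *Tnfaip3*, encoding the deubiquitinating enzyme A20, has signals of 7.11 and 7.49 and is 1.30-fold lower. *Nfkbia* and *Tnfaip3* encode inhibitors of the pathway that are themselves textbook NF-κB targets. Not all genes of this kind differ as much. The IκB genes *Nfkbib* and *Nfkbie* are at -0.16 and -0.09, and *Bcl3* and *Tnip1* at -0.002 and 0.005. The subunits and adaptors that follow differ less than *Nfkbiz*, *Nfkbia* and *Tnfaip3*. *Birc3*, encoding the ubiquitin ligase cIAP2, is at -0.32 and *Rela*, encoding the p65 subunit, at -0.27. The other NF-κB subunit genes measured here are at -0.23 for *Rel*, -0.09 for *Nfkb2* and -0.05 for *Relb*. *Ikbkg*, encoding the regulatory IKK subunit NEMO, is at -0.01, so this subunit, left intact by design, has nearly the same signal on both arrays. *Chuk*, encoding the IKK subunit IKKα, was not found with a single symbol and has no value here. Genes upstream of the kinase lie on both sides of 0. Below it are *Map3k14* at -0.24, *Tnfrsf1b* at -0.19, *Traf2* at -0.15, *Traf6* at -0.14, *Tab2* at -0.11 and *Tab1* at -0.10. The TNF receptor gene *Tnfrsf1a* is at 0.10, its adaptor *Tradd* at 0.10 and the kinase gene *Map3k7* at 0.01. The highest ratio of the list is 0.14, for the caspase inhibitor *Xiap*.

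**Figure D2:**
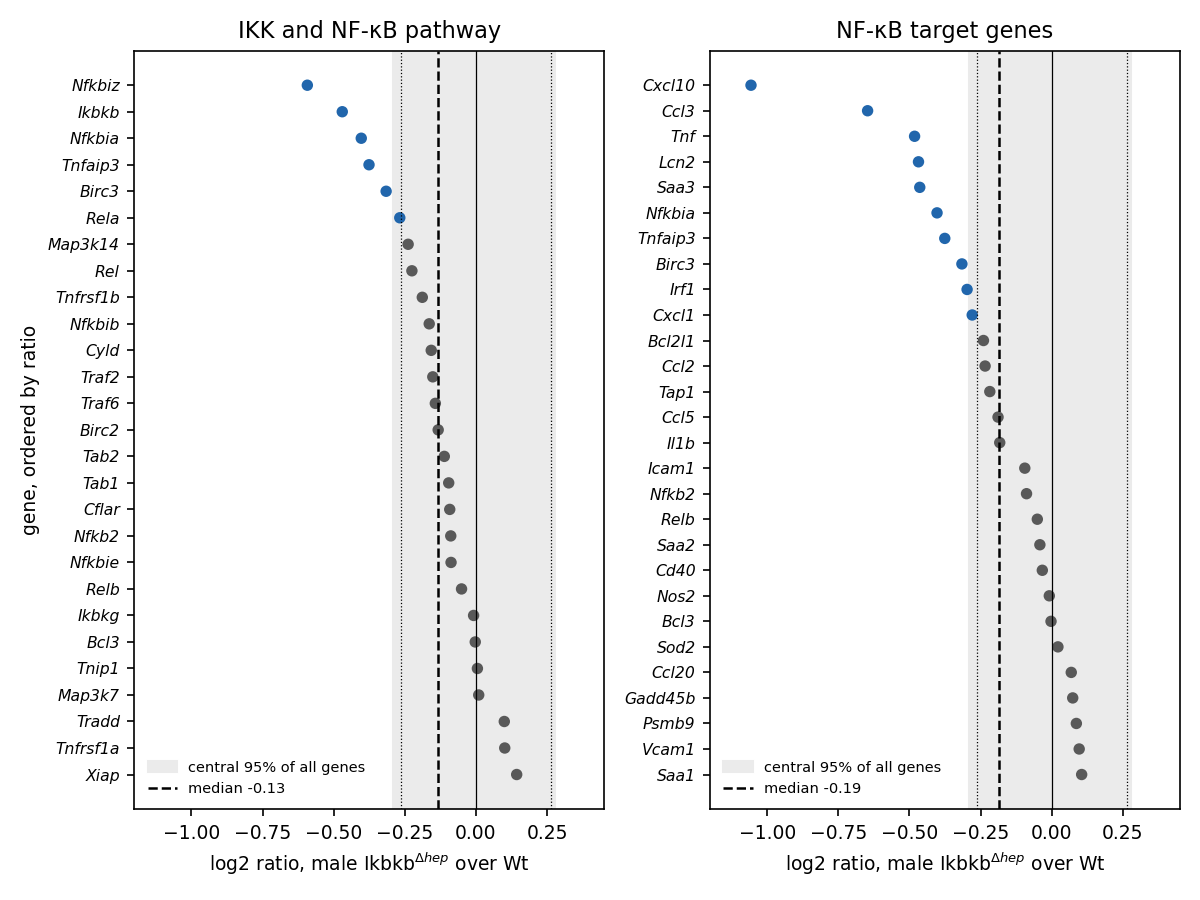
Log2 ratio of male *IkbkbΔhep* over male Wt (x axis) for each gene of the IKK and NF-κB pathway (27 genes, left) and for NF-κB target genes (28 genes, right), 1 point a gene, ordered by ratio on the y axis. Blue points are at least 1.2-fold lower (dotted lines), the dashed line is the list's median, and the grey band holds the central 95% of all genes. Points crowd on the lower side in both lists, with *Nfkbiz* and *Cxcl10* outermost.

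Textbook targets of NF-κB show the same tilt, and 6 of the listed targets are also in the pathway list just described. Of 34 targets found on the array 28 are above the level, and 22 of the 28 have ratios below 0, with a median of -0.19. At 1.2-fold 10 are lower and 0 are higher, against 3.46% and 2.94% of all genes. *Cxcl10*, encoding a chemokine that draws T cells, has log2 signals of 7.25 in *IkbkbΔhep* and 8.31 in Wt, a ratio of -1.06. *Ccl3*, encoding the macrophage chemokine MIP-1α, has signals of 6.93 and 7.57, a ratio of -0.65. *Tnf*, encoding tumour necrosis factor, has signals of 5.84 and 6.32, which lie close to the receptor level, and a ratio of -0.48. *Icam1* and *Sod2*, targets that many liver cells express, are at -0.09 and 0.02, and the chemokine gene *Ccl20* is at 0.07. The acute phase genes among the targets lie on both sides of 0. The lipocalin gene *Lcn2* (-0.47) and the serum amyloid gene *Saa3* (-0.46) are 1.38-fold lower each, and *Cxcl1* (-0.28) and *Irf1* (-0.30) are 1.21-fold and 1.23-fold lower. The targets at or above 0 include *Saa1*, at 0.11, and the adhesion molecule gene *Vcam1*, at 0.10.

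The sequences before the start sites of 3 of these genes are shown because each holds the κB consensus, the decamer that NF-κB dimers bind, and each gene is at least 1.2-fold lower. They are the 250 bases before the annotated start in the RefSeq promoter table (build GRCm38.p6), all on the minus strand of the genome, written 5′ to 3′ toward the gene. Capitals mark the bases matched by the κB consensus on either strand.
Cxcl10 (chr5:92348890-92349139): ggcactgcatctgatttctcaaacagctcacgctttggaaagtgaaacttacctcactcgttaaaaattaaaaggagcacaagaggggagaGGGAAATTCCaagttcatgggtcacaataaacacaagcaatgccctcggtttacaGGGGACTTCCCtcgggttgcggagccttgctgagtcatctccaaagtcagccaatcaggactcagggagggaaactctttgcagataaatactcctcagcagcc
Nfkbia (chr12:55492648-55492897): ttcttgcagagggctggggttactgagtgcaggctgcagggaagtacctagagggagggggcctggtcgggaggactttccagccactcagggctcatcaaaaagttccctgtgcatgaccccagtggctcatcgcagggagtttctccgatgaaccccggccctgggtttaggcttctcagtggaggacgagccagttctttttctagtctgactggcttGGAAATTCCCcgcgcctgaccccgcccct
Tnfaip3 (chr10:19015411-19015660): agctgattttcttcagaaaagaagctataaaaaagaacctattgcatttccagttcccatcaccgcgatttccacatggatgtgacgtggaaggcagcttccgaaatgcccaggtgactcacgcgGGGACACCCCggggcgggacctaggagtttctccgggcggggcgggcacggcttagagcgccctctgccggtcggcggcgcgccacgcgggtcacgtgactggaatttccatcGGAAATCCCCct
In *Cxcl10* the first match begins 159 bases before the start and the last 103, with a pair of them overlapping, in *Nfkbia* the match begins at 29 bases, and in *Tnfaip3* matches begin at 125 and 12 bases. The consensus occurs in 7.01% of 27025 promoters of the table, taking the first promoter of a gene, and in 8 of the 22 target genes that have one. The median ratio is -0.29 over those 8 and -0.20 over the other 14, whereas in the pathway list it is -0.12 over the 8 genes with the consensus and -0.14 over the 14 without. A match describes letters in this window and is not evidence of binding, and *Nfkbiz* and *Ikbkb* are not in the table.

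Signalling molecules of inflammation as a group are lower more often than higher. Of 21 chemokine and cytokine genes above the level, 16 have ratios below 0, the median is -0.15, and 6 are at least 1.2-fold lower with 0 higher. Beside *Cxcl10*, *Ccl3* and *Tnf* these are *Cxcl9*, *Il1a* and *Cxcl1*. *Cxcl9*, the next gene to *Cxcl10* and encoding a ligand of the same receptor, has signals of 7.73 and 8.16, a ratio of -0.44. *Il1a*, encoding interleukin-1α, has signals of 6.25 and 6.68, a ratio of -0.43. *Ccl2*, whose product recruits monocytes, is at -0.23 and *Il1b* at -0.18. *Il6* lies below the level on both arrays, and no fold is given. Genes of the response to interferon-γ and of antigen presentation have a median of -0.10, and 18 of 23 are below 0, with 3 at least 1.2-fold lower, *Cxcl10*, *Cxcl9* and *Irf1*, all named above. The guanylate-binding protein genes are close together, at -0.18 for *Gbp3*, -0.11 for *Gbp4*, -0.20 for *Gbp5* and -0.16 for *Gbp7*.

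Type I interferon genes do not share this tilt. Of 27 genes 13 have ratios above 0 and 14 below, the median is -0.01, and 4 are at least 1.2-fold higher with 0 lower. *Usp18*, encoding a protease that removes ISG15 from proteins, has log2 signals of 8.15 in *IkbkbΔhep* and 7.58 in Wt, a ratio of 0.57. *Oas1a*, encoding an antiviral 2′-5′-oligoadenylate synthetase, has signals of 6.79 and 6.34, a ratio of 0.45. *Mx2* is at 0.42 and *Dhx58*, encoding the RNA helicase LGP2, at 0.40. The next genes of the list are *Oasl2* at 0.26 and *Ifi35* at 0.24, and of the others *Ifit1* is at 0.16, *Irf7* at -0.01 and *Rsad2* at -0.15. In the female pair *Usp18*, *Oas1a* and *Dhx58* have ratios of -0.63, -0.60 and -0.18, *Mx2* has signals of 5.76 and 6.40, and whether the sexes differ here was not tested.

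Acute phase genes divide into members that are higher and members that are lower, so that the median of 31 is 0.00. At 1.2-fold 5 are higher and 3 are lower, the latter being *Lcn2*, *Saa3* and *Hamp*. *Mt2*, encoding a metallothionein that binds zinc and copper, has log2 signals of 11.07 in *IkbkbΔhep* and 10.28 in Wt, a ratio of 0.79. The other liver metallothionein gene, *Mt1*, has signals of 11.04 and 10.66, a ratio of 0.39. *Fgl1*, encoding a fibrinogen-like protein secreted by hepatocytes, has signals of 11.32 and 10.64, a ratio of 0.68. These are among the brighter genes of the arrays, and all 3 are higher in *IkbkbΔhep*. *Apcs*, encoding serum amyloid P component, is at 0.57 and *Orm3*, encoding an orosomucoid, at 0.52. The difference is not shared by whole families. The close relatives *Crp*, *Orm1* and *Orm2* are at -0.05, -0.02 and 0.02, and the fibrinogen genes *Fga*, *Fgb* and *Fgg* are at 0.00, 0.04 and -0.03. The list also holds genes of iron handling. *Hamp*, encoding hepcidin, the hormone that blocks iron export, has signals of 10.33 and 10.96, a ratio of -0.63. Its paralog *Hamp2* is at 0.15, the hepcidin inducer *Bmp6* at 0.06, and the BMP target genes *Id1*, *Smad7* and *Smad6* at -0.22, -0.24 and 0.14. None of the zinc transporter genes listed differs by 1.2-fold, with *Slc30a1* at 0.09 and *Slc39a14* at 0.18. Of 30 complement and coagulation genes none differs by 1.2-fold either way.

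**Figure D3:**
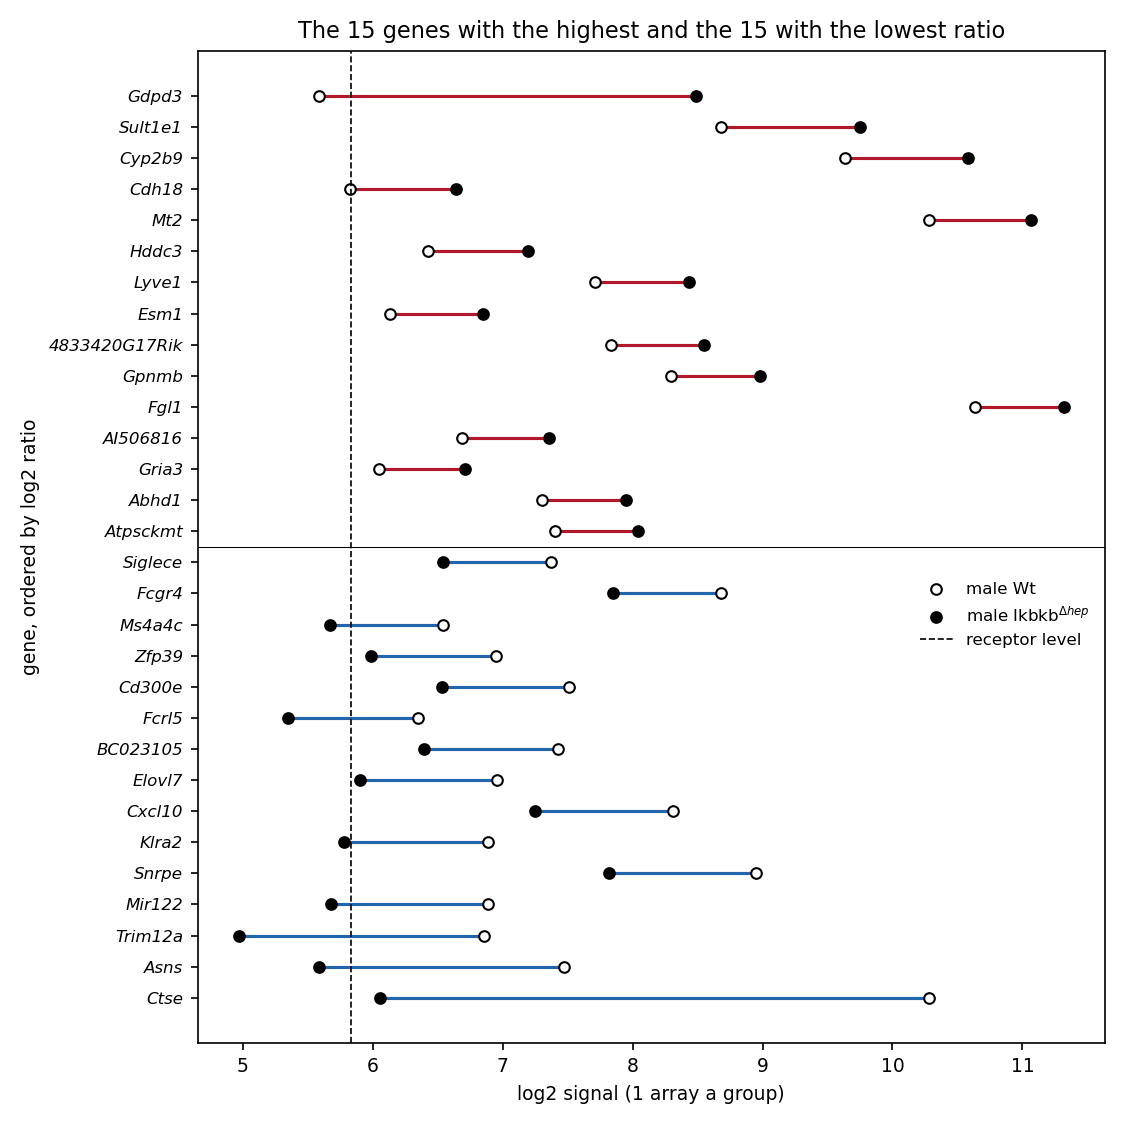
Log2 signal (x axis) of the 15 genes with the highest and the 15 with the lowest log2 ratio (y axis) in male Wt (open circles) and male *IkbkbΔhep* (filled circles), 1 array each, so that there are no error bars. Red lines join genes higher and blue lines genes lower in *IkbkbΔhep*, and the dashed line is the receptor level of 5.83. Several genes at the bottom reach or cross that line, whereas *Ctse* spans from 6.06 to 10.28.

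*Ctse*, *Gdpd3* and *Snrpe* are each the only gene at 1.5-fold among the relatives that were listed with them. *Ctse* has log2 signals of 6.06 in *IkbkbΔhep* and 10.28 in Wt, so that a bright gene is 18.7-fold lower and only just above the receptor level. Of 23 lysosome and cathepsin genes it alone differs by 1.2-fold, and the others run up to 0.23, with *Ctsd* at 0.14, *Ctsb* at 0.06 and *Ctss* at 0.00. *Gdpd3* has signals of 8.49 and 5.59, at least 6.32-fold higher. Of the other genes of the family *Gde1* is at 0.26, *Gpcpd1* at 0.19 and *Gdpd5* at 0.06, while *Gdpd1* lies below the receptor level on both arrays. *Snrpe*, encoding the SmE protein of the spliceosome, has signals of 7.82 and 8.95, a ratio of -1.13. The remaining 17 spliceosome genes lie within 1.2-fold, with *Snrpg* at 0.02, *Snrpd1* at -0.07 and *Snrpb* at 0.20. In the female pair *Ctse* and *Snrpe* have similar ratios, at -4.18 and -1.01. *Gdpd3* has female signals of 8.30 in *IkbkbΔhep* and 5.02 in Wt, so that its Wt signal lies below the receptor level in both sexes and no sizes can be compared.

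Genes that neighbour them were examined with 10 measured genes on either side in the order of GRCm38.p6, and none of these differs by 1.5-fold. Of the 20 neighbours of *Ctse*, 3 differ by 1.2-fold and all are lower. *Pm20d1*, encoding a secreted amidase and lying 2 measured genes away, has signals of 9.76 and 10.25, a ratio of -0.49. *Ikbke*, encoding the IKK-related kinase IKKε and lying 2 measured genes away on the other side, has signals of 7.70 and 7.99, a ratio of -0.29. *Rassf5* is at -0.27. In the female pair the same 3 genes are at -0.46, -0.29 and -0.24, close to the male values. *Ctse* and *Snrpe* lie on the same chromosome, but of the 20 neighbours of *Snrpe* only *Pik3c2b* differs by 1.2-fold, at 0.32. Around *Gdpd3* 1 of 20 neighbours does, *Nupr1* at 0.27. For comparison, 3 of 20 neighbours of *Ikbkb* and 4 of 20 of *Trim12a* differ by 1.2-fold. Of all genes 2.94% are at least 1.2-fold higher and 3.46% lower.

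*Trim12a*, encoding a TRIM protein of a clustered family, has log2 signals of 4.97 in *IkbkbΔhep* and 6.85 in Wt, at least 2.03-fold lower. The adjacent paralog *Trim12c* points the other way, with signals of 6.71 and 6.19 and a ratio of 0.51. Probe sequences are not held here, so how the pair share probes is not known. On the female arrays *Trim12a* is at 7.24 and 7.22, so the male *IkbkbΔhep* array alone is low. *Asns*, encoding asparagine synthetase, a target of the amino acid response, has signals of 5.58 and 7.48, at least 3.13-fold lower. Both female arrays are low as well, at 5.18 and 5.52, so the male Wt array alone is high. Of 26 genes of the ER stress and amino acid response list, *Asns* among them, 19 have ratios below 0, and the one other gene at least 1.2-fold lower is the protein disulfide isomerase gene *Pdia4*, at -0.30. *Atf4* is at -0.10, *Trib3* at -0.09, *Ddit3* at 0.03 and *Chac1*, the one gene 1.2-fold higher, at 0.27. *Elovl7*, encoding a fatty acid elongase, has signals of 5.90 and 6.96, a ratio of -1.05, while *Elovl5* and *Elovl6* are at -0.15 and -0.27. *Mir122*, the gene of the main hepatocyte microRNA, has signals of 5.68 and 6.89, at least 2.08-fold lower, and which form of the RNA its probe set reads could not be checked.

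This way of reading single arrays extends to all 52 genes at 1.5-fold. Of the 22 higher genes, 7 have a male *IkbkbΔhep* signal at least 1.2-fold outside the range of the other 3 arrays while male Wt is not, and in 11 genes only male Wt is. For 3 genes both male arrays are outside on opposite sides, and for 1 neither is. Of the 30 lower genes, male *IkbkbΔhep* alone is outside in 14, male Wt alone in 8, both in 6 and neither in 2. *Sult1e1* and *Gpnmb* are among the genes in which *IkbkbΔhep* stands apart, *Mt2*, *Fgl1* and *Marco* among those in which Wt does. Sex and pool are part of these ranges, so a gene that is higher in females by nature can place male Wt outside.

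*Sult1e1*, encoding the sulfotransferase that inactivates estrogens, is the second highest gene. Its log2 signals are 9.75 in *IkbkbΔhep* and 8.68 in Wt, a ratio of 1.07. Liver X receptors (LXR), which sense oxysterols, are known to act on it, and the other LXR targets were therefore listed. Of 17 of them *Sult1e1* alone differs by 1.2-fold, and the median is -0.04. The cholesterol exporter genes *Abca1* and *Abcg1* are at 0.02 and -0.05, *Abcg5* and *Abcg8* at -0.07 and -0.15, and the lipogenic genes *Srebf1*, *Scd1* and *Fasn* at 0.08, -0.04 and -0.10. The LXRα gene *Nr1h3* is at 0.03. Among 8 sulfotransferase and sulfate donor genes above the level, *Sult5a1* and the donor synthase *Papss2* are 1.21-fold and 1.23-fold lower, and *Sult1a1* and *Sult1d1* are at 0.08 and 0.05.

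The promoter of *Sult1e1* is shown because it holds both parts of a paired nuclear receptor element, AGGTCA and TGCTCA spaced by 4 bases, read on the strand opposite to the gene. Capitals mark these parts in the 250 bases before the annotated start (RefSeq, GRCm38.p6, minus strand).
Sult1e1 (chr5:87591612-87591861): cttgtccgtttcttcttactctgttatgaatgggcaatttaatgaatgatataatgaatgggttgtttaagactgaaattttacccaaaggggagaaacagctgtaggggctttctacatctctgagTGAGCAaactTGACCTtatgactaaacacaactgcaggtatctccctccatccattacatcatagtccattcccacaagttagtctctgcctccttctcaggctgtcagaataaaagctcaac
The element begins 123 bases before the start. The pair with this spacing occurs on either strand in 6 of 27025 promoters, or 0.0222%, whereas AGGTCA alone occurs in 13.8%. The letters searched for are those that the study's methods give for a putative element of *Sult1e1* itself. Their presence here was thus fixed in advance, and their rarity elsewhere is no test.

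Cytochrome P450 genes of drug and steroid metabolism make up 3 of the 22 higher genes. *Cyp2b9*, a female-predominant P450, has log2 signals of 10.58 in *IkbkbΔhep* and 9.64 in Wt, a ratio of 0.94. *Cyp2b13* has signals of 7.17 and 6.54, a ratio of 0.63, and *Cyp2b10*, the classical target of the xenobiotic receptor CAR, has 7.01 and 6.51, a ratio of 0.50. All 3 *Cyp2b* genes listed are thus higher, while the CAR gene *Nr1i3* is at -0.06 and *Cyp3a11*, the classical PXR target, at -0.07. *Cyp17a1*, encoding steroid 17α-hydroxylase, has signals of 7.99 and 7.37, a ratio of 0.62. *Cyp2c39*, a retinoic acid hydroxylase, has signals of 11.58 and 10.99 and a ratio of 0.58, just short of 1.5-fold. *Cyp1a2* (-0.47) and *Cyp26a1*, another retinoic acid hydroxylase (-0.46), are lower by 1.39-fold and 1.37-fold. Of the 30 genes of the drug-metabolising list, 3 are at least 1.2-fold higher, all of the *Cyp2b* subfamily, and 3 lower.

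The promoters of *Cyp2b9* and *Cyp2b13* are set side by side because the genes are close paralogs and both are higher here. Both are on the plus strand (RefSeq, GRCm38.p6), and capitals mark AGGTCA, the nuclear receptor half-site, searched on both strands.
Cyp2b9 (chr7:26173159-26173408): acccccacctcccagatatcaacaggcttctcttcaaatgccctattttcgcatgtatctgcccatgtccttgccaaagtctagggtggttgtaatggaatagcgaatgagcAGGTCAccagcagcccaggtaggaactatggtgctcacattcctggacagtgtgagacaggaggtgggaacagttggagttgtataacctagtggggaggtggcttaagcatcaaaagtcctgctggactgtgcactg
Cyp2b13 (chr7:26061245-26061494): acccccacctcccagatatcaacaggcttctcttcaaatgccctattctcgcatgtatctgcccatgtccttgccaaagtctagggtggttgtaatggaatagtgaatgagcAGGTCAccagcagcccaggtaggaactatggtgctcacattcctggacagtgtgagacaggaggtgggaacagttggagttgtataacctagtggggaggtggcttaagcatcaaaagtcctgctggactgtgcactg
They are identical at 248 of 250 positions (99.2%), and the half-site begins 138 bases before the start in both. Transcripts and probes of these paralogs were not compared, so whether their values are separate readings is uncertain.

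These P450 genes belong to a list of female-predominant liver genes. Of 19 such genes 11 have ratios above 0, the median is 0.12, 7 are at least 1.2-fold higher and 3 are at least 1.2-fold lower. The median is 0.065 without a filter on signal. The 3 lower genes are *Acot3*, an acyl-CoA thioesterase, at -0.52, the peroxisomal transporter *Abcd2* at -0.41, and *Cyp3a44* at -0.31. Beside these shares of 19 stand 2.94% and 3.46% of all genes. *Cyp2b13* and *Cyp17a1* were also listed by the study from these arrays. Male-predominant genes are also spread, with 4 of 21 at least 1.2-fold higher and 2 lower and a median of 0.06. *Hsd3b5*, a male-specific steroid dehydrogenase, is at 0.48, *Bcl6*, a repressor of female genes in male liver, at 0.38, and *Serpina12* at -0.49. Of 15 genes of growth hormone signalling, which sets these sex patterns, *Bcl6* and the growth factor receptor gene *Egfr* (0.29) are at least 1.2-fold higher and 0 are lower. In the same list *Stat5b* is at -0.08, *Ghr* at 0.00 and *Cux2*, the female-specific repressor, at 0.12. The counts of the female- and male-predominant lists thus go both ways.

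Markers of minor liver cells differ beside several results above. Of 11 genes of non-classical monocytes, which patrol vessel walls, 10 have ratios below 0, the median is -0.19, and 4 are at least 1.2-fold lower. *Cd300e*, an activating receptor, has log2 signals of 6.53 in *IkbkbΔhep* and 7.51 in Wt, a ratio of -0.98. *Fcgr4*, an IgG receptor, has signals of 7.85 and 8.68, a ratio of -0.83, and *Adgre4* has 7.31 and 7.97, a ratio of -0.66. The genes of the list are not alike, since *Treml4*, a defining marker, is at 0.03 with signals of 8.13 and 8.10. *Cd300e*, *Fcgr4* and *Adgre4* are genes that the study itself listed from these arrays, so they are no independent sign of the direction of the list. Other myeloid lectin and inhibitory receptor genes among the 30 lower genes are *Clec4a1* and *Clec4a3*, at -0.72 each, and *Siglece* at -0.83. Being taken from the lower genes, they are no independent sign of direction either. *Ms4a4c*, at least 1.64-fold lower, has signals of 5.67 and 6.54. It passes the level only through Wt, so its direction is in part set by the filter. Of 14 NK cell genes 10 lie below the level. The Ly49 gene *Klra2*, at least 2.08-fold lower, and *Cd244a*, at least 1.49-fold lower, pass it only through their Wt signals of 6.89 and 6.40, so their direction is in part set by the filter. The defining markers *Ncr1* and *Klrb1c* lie below the level on both arrays. The part of monocytes and NK cells in the lower chemokine signals was not tested.

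Markers of Kupffer cells and of sinusoidal endothelial cells, which line the liver sinusoids, are above 0 more often than below. Of 14 Kupffer cell markers 11 have ratios above 0, and at 1.2-fold 2 are higher and 1 is lower. Their median of 0.05 is small, beside -0.01 for all genes, and genes of 1 pair of pools give no error for it. *Marco*, a scavenger receptor, has log2 signals of 6.74 in *IkbkbΔhep* and 6.13 in Wt, a ratio of 0.61, and *Cd163*, the haemoglobin scavenger receptor, has 6.62 and 6.06, a ratio of 0.55. The defining marker *Clec4f* is at 0.26, *Vsig4* at 0.17, *Timd4* at -0.08, *Folr2* at -0.24 and *C1qa* at 0.01, and *Id3* is 1.25-fold lower. Of 20 endothelial markers 15 have ratios above 0, the median is 0.12, 4 are at least 1.2-fold higher and 0 lower. *Lyve1*, the hyaluronan receptor of sinusoids, has signals of 8.43 and 7.71, a ratio of 0.72. *Esm1*, encoding endocan, has 6.85 and 6.13, also a ratio of 0.72. *Mrc1*, the mannose receptor, is at 0.27 and the Wnt agonist *Rspo3* at 0.28, whereas the defining markers *Stab2*, *Clec4g* and *Oit3* are at 0.17, 0.13 and 0.21. The endothelial genes *Pecam1* and *Cdh5* are at 0.06 and 0.02. The 5 markers below 0 are *Bmp2* (-0.23), *Wnt2* (-0.21), *Dnase1l3* (-0.10), *Kdr* (-0.09) and *Wnt9b* (-0.07). *Marco*, *Esm1* and *Gpnmb* were also listed by the study from these arrays, so they are no independent sign of direction. For lipid-associated macrophages 11 of 13 markers are above 0 with a median of 0.11, and *Gpnmb* (0.68) exceeds 1.5-fold while *Trem2* and *Cd9* are at 0.02 and -0.02. *Itgax*, encoding CD11c, is 1.46-fold lower. No gene of the 21 for stellate cells and fibrosis differs by 1.2-fold, and the highest is *Col3a1* at 0.25.

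Lipid genes differ in small steps. Of 23 genes of fatty acid synthesis 15 have ratios below 0, with a median of -0.09. *Thrsp*, a lipogenic regulator, has log2 signals of 11.34 in *IkbkbΔhep* and 10.91 in Wt, a ratio of 0.44, and the phosphatidate phosphatase gene *Lpin1* is at 0.36. *Mogat1*, encoding a monoacylglycerol acyltransferase, is at -0.46 and *Elovl6* at -0.27. The list thus has 2 genes at 1.2-fold on either side. Storage genes lean toward higher signals. Of 22 lipid droplet genes 17 are above 0, the median is 0.08, and the fatty acid binding protein gene *Fabp4* (0.46) alone reaches 1.2-fold. The droplet proteins *Plin2*, *Plin5* and *Cidec* are at -0.08, 0.17 and 0.22. Adipocyte markers go with them, since 5 of 7 found are above the level, all 5 have ratios above 0 and their median is 0.20, with *Fabp4*, *Plin4* and *Cidec* in both lists. The defining adipocyte genes *Adipoq* and *Lep* lie below the level on both arrays, and *Retn* passes it only through the *IkbkbΔhep* array. The part of adipocytes in the droplet genes was not tested. Sterol synthesis leans the other way. Of 20 cholesterol synthesis genes 14 are below 0, the median is -0.09, and the sterol demethylase gene *Cyp51* (-0.56) and the desaturase gene *Sc5d* (-0.40) are 1.48-fold and 1.32-fold lower. *Apoa4*, encoding an apolipoprotein of triglyceride-rich particles, is at 0.47 from signals of 12.57 and 12.10, and *Apom* is at -0.35. Of 30 genes of fatty acid oxidation *Acot3* alone differs by 1.2-fold, and *Ppara*, *Cpt1a* and *Acadm* are at -0.02, 0.00 and 0.02.

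Bile acid, glucose and stress genes differ in single members. Of 25 bile acid genes 15 have ratios below 0, the median is -0.06, and the uptake transporter *Slco1a1* (-0.31) and the efflux pump *Abcc4* (-0.30) are past 1.2-fold, while *Cyp7a1*, the rate-limiting enzyme of bile acid synthesis, is at -0.09. Of 26 genes of glucose metabolism and insulin signalling the glucose-6-phosphatase gene *G6pc*, at 0.37 from log2 signals of 12.24 and 11.86, is past 1.2-fold on the higher side. The glycolytic regulator *Pfkfb3* (-0.35) and the insulin receptor substrate *Irs1* (-0.29) are past it on the lower side, and *Irs2*, *Insr* and *Pck1* are at 0.01, -0.01 and -0.01. Hepatocyte death and the JNK pathway are known to follow when NF-κB is blocked in liver, and 24 genes of p53, apoptosis and JNK were listed for this. Their median is 0.00, with the death receptor *Fas* (-0.27) and the immediate early genes *Fos* (-0.48) and *Fosb* (-0.33) lower by at least 1.2-fold. *Bbc3*, encoding the death protein PUMA, has signals of 6.05 and 5.76, and as the latter lies below the level no fold is given. The JNK genes *Mapk8* and *Mapk9* are at -0.01 and -0.05 and *Jun* at 0.06.

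Some lists hold more genes on one side of 0 than on the other. Of 30 conjugation and NRF2 target genes 25 have ratios below 0, the median is -0.08, and 3 are at least 1.2-fold lower, the glutathione transferase genes *Gsta4* (-0.47), *Gstt2* (-0.30) and *Gstm6* (-0.28). Of 20 circadian genes 17 are below 0, with a median of -0.07, and the deadenylase gene *Noct* at 0.48 is the one gene past 1.2-fold. Of 26 amino acid and urea cycle genes 19 are above 0, with a median of 0.06, and of 29 oxidative phosphorylation genes 19 are above 0, with a median of 0.03. None of the latter 2 lists holds a gene at 1.2-fold. In all, 52 lists hold 834 of the 13198 genes, and 25 of the 52 genes at 1.5-fold are among them. The study's own list from these arrays has 13 genes, of which 8 are at least 1.5-fold higher and 5 lower. As the lists were also chosen with earlier results of these data known, this overlap is in part built in. In 29 lists no gene reaches 1.5-fold, and in 11 no gene reaches 1.2-fold, among them hepatocyte markers, T cell markers, heat shock genes and ribosomal proteins. The lists vary in size and signal and share genes, so a median far from -0.01 describes the pools and is no test.

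**Figure D4:**
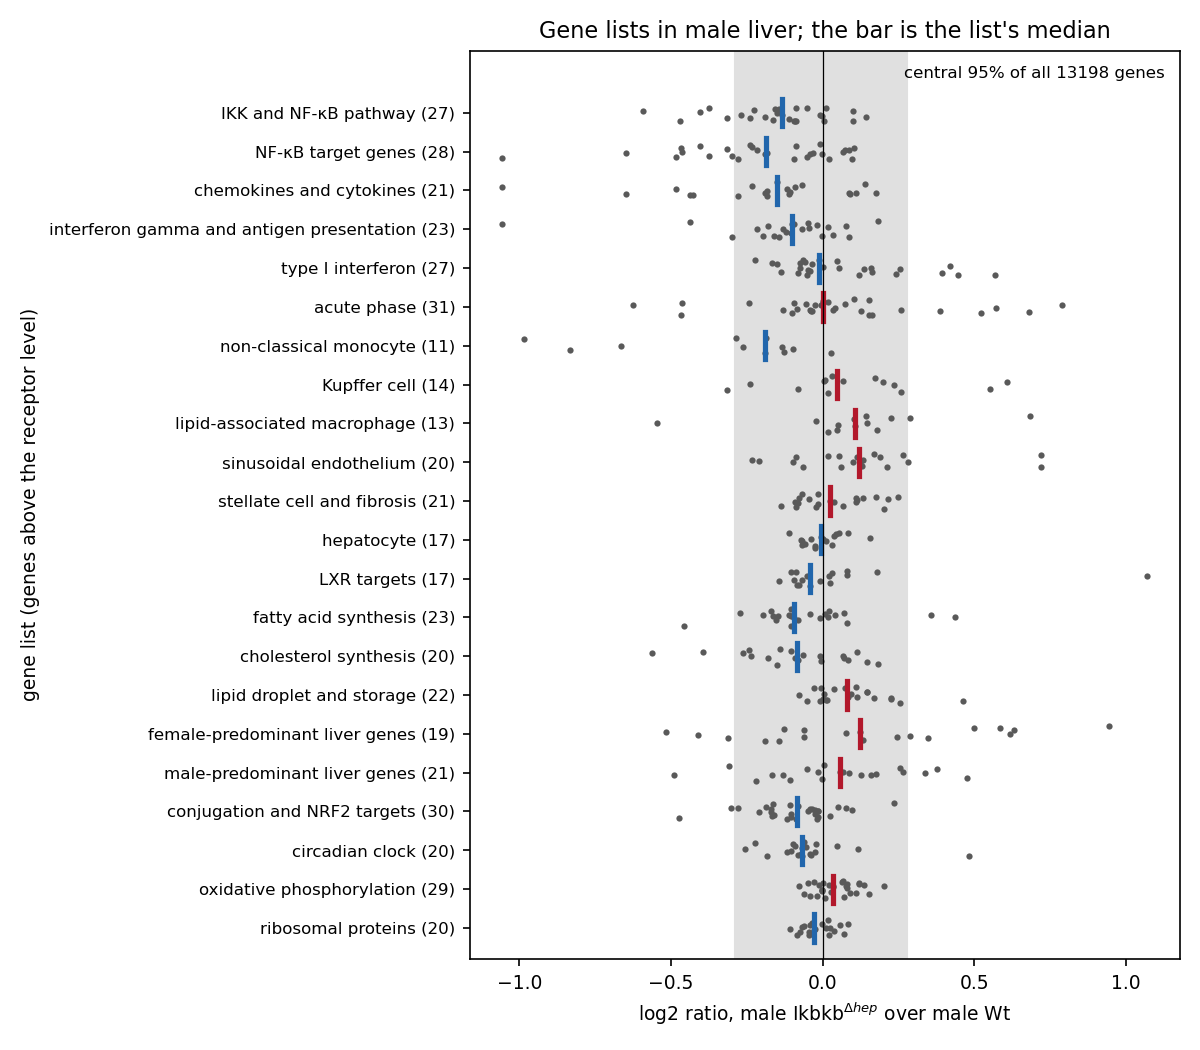
Log2 ratio of male *IkbkbΔhep* over male Wt (x axis) for the genes of 22 lists (y axis, number of genes in brackets), 1 point a gene. The bar is the list's median, blue below 0 and red above, and the grey band is the central 95% of all 13198 genes, from -0.29 to 0.28. Lists of NF-κB, chemokine and non-classical monocyte genes lie to the left and endothelial genes to the right, and ribosomal and oxidative phosphorylation genes stay in the band.

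The remaining genes at 1.5-fold have no list in common. Higher in *IkbkbΔhep* are *Cdh18*, a cadherin gene, at least 1.75-fold from signals of 6.64 and 5.82, and *Hddc3*, with signals of 7.20 and 6.43 and a ratio of 0.77. The glutamate receptor gene *Gria3* (0.66), *Abhd1* (0.64), *Atpsckmt* (0.63), *Arhgap10* (0.61) and the globin gene *Hbq1b* (0.60) follow. The unnamed or RIKEN genes *4833420G17Rik*, *AI506816* and *4930444G20Rik* are at 0.72, 0.67 and 0.61. *Olfr222*, an olfactory receptor and so one of the genes that gauge noise, is at 0.59, at least 1.31-fold, which shows the size that a receptor can reach on dim signals. Lower are *BC023105* (-1.04), the Fc receptor-like gene *Fcrl5* of B cells, at least 1.43-fold, the zinc finger gene *Zfp39* (-0.96), the calcium-binding *Cib3*, at least 1.53-fold, and *Gas2* (-0.73). The last are *Kctd21* (-0.68), the integrin gene *Itgb8*, at least 1.25-fold, the lectin gene *Clec2h* (-0.63), *Pls1*, encoding a plastin that bundles actin (-0.62), *Frg2f1* (-0.60) and *Gm1966* (-0.60). Most of these have signals under 8, where the spread of ratios is wider.

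The genes of the male pair were then read in the female pair, which shares no array with it. Of the 22 genes higher in males 9 are above 0 in females and 13 below, with a median of -0.05, and 15 are within 1.2-fold. Of these 22, *Gdpd3* and *AI506816* are at least 1.5-fold higher in females too, and *Gpnmb* and *Cyp17a1* are at least 1.5-fold lower. Of the 30 genes lower in males 21 are below 0 in females, with a median of -0.17, 17 are within 1.2-fold, 5 are at least 1.5-fold lower and 0 are higher. The 5 are *Ctse*, *Snrpe*, *BC023105*, *Elovl7* and *Ms4a4c*, and for the last 2 the female *IkbkbΔhep* signals of 5.45 and 5.33 lie below the receptor level. In the female pair 0.242% of the same 13198 genes are at least 1.5-fold higher and 0.508% at least 1.5-fold lower. At 1.2-fold these shares are 4.49% and 6.34%, and the median female ratio of all genes is -0.02. The genes at 1.5-fold in males are thus past 1.2-fold in females more often than all genes are. The lists of non-classical monocytes and NF-κB targets have female medians of 0.10 and -0.10 beside the male -0.19 and -0.19. Chemokines and cytokines are at -0.15 in both sexes. The interferon-γ and type I interferon lists are at -0.28 and -0.27 in females beside the male -0.10 and -0.01. Whether the sexes differ was not tested.

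**Figure D5:**
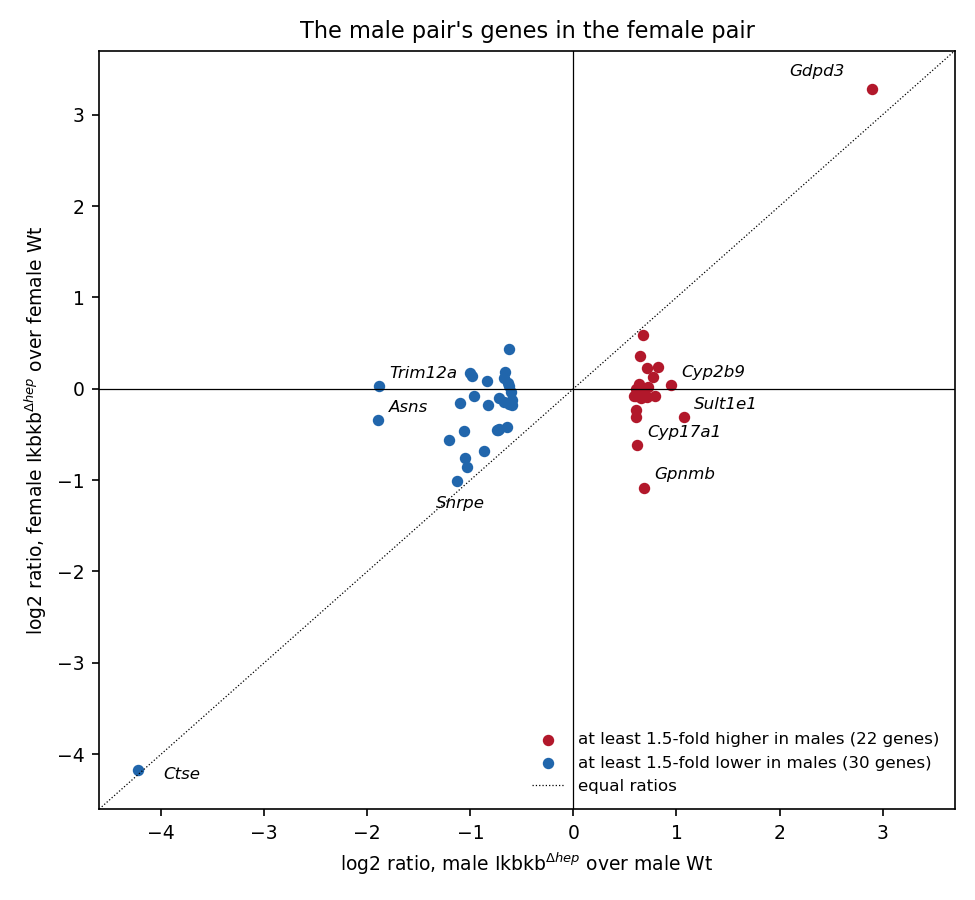
Log2 ratio of *IkbkbΔhep* over Wt in females (y axis) against males (x axis) for the 22 genes at least 1.5-fold higher (red) and the 30 at least 1.5-fold lower (blue) in males, which share no arrays. The dotted line marks equal ratios. *Ctse*, *Snrpe*, *BC023105* and *AI506816* lie near it, and *Gdpd3* has Wt signals below the receptor level in both sexes. Within 1.2-fold in females are 15 of the 22 and 17 of the 30 genes. Of the red points *Gpnmb* and *Cyp17a1* lie well below a female ratio of 0, and of the blue points *Elovl7* and *Ms4a4c* also do.

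Genes that were also measured by real-time PCR number 15, and 12 are above the level. *Ppara*, *Ppard* and *Pparg* are at -0.02, 0.09 and 0.02, *Col1a1* and *Tgfb1* at 0.11 and -0.09, the macrophage gene *Cd68* at 0.10, and *Arg1*, which in whole liver is foremost a urea cycle gene of hepatocytes, at 0.14. All of these lie within 1.2-fold. *Ccl2* at -0.23 and *Nos2* at -0.01 do so as well. *Sult1e1* (1.07), *Gpnmb* (0.68) and *Tnf* (-0.48) are the 3 past 1.2-fold, and *Tnf* is lower.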

How the data were processed

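Liver RNA of 4 groups of HCFD-fed mice was hybridised to 1 Affymetrix array each, and the male pair was analysed, with the female pair beside it. The log2 signals per probe set are as the authors deposited them. The submitters' processing notes list RMA and Affymetrix Expression Console, without versions. RMA corrects background, normalizes the arrays together and summarises probes, which pulls the arrays toward one distribution. The methods name an older Affymetrix mouse genome array and TRIzol, the labels RNeasy and a whole-transcript kit, and the platform annotation used is that of a whole-transcript array. A single gene symbol is known for 21789 of 35556 probe sets, several for 1621 and none for 12146, and a gene's probe sets were averaged. Of 788 genes with several, 5 disagree at 1.2-fold (*Dnajc13*, *Hmcn1*, *Myo9a*, *Pigp* and *Stard9*). No genome build is named, so the gene table of GRCm38.p6 served for names and order only.

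The log2 ratio was taken without further normalization, and genes were counted at 1.5-fold and 1.2-fold. Without replicates no test was run, and the number of arrays limits the precision. The members and lists were chosen with earlier results of these data known. Named are *Ikbkb*, the 15 highest and 15 lowest ratios, up to 4 genes per list and more where a list is described, the study's PCR genes and sex-linked genes. *Cyp2c39*, the motifs and the promoters shown were chosen after values were seen, as were the other genes at 1.5-fold. Alternatives were a loess correction, 2 centrings, other filters, a 2-fold threshold, other probe set summaries and the list mean. Steps were tested on simulated data and run in Python 3.11.15 with numpy 2.4.6, pandas 2.3.3, statsmodels 0.14.6 and matplotlib 3.10.9.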

Additional observations from a re-analysis of the deposited data

Results flagged for a closer look

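*Gpnmb* and *Cyp17a1* are the 2 genes of 13198 that are at least 1.5-fold higher in the male pair and at least 1.5-fold lower in the female pair. No gene shows the opposite arrangement. The male log2 ratio of *Gpnmb* exceeds the female one by 1.77 (0.68 against -1.08). That of *Cyp17a1* exceeds it by 1.24 (0.62 against -0.62). Each ratio rests on 2 arrays, and whether the sexes differ was not tested.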

How the results depend on the processing

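Counts at 1.5-fold and 1.2-fold kept within 1.5 times of those reported, except as follows. Without a filter on signal 53 genes are higher and 60 lower at 1.5-fold, and 923 higher and 906 lower at 1.2-fold, of 19920 genes. With the 99th percentile of the receptors as the level (6.52), 18 are lower at 1.5-fold and 219 higher at 1.2-fold, of 10051. At 2-fold 2 are higher and 10 lower. Of 498 recomputed ratios of 59 genes none changed sign, and *Nfkbiz* (-0.58) and *Olfr222* (0.58) leave 1.5-fold under the loess correction. Filters leave a gene's ratio as it is, and the centrings and the loess correction moved none by more than 0.022. The signs of these genes, chosen mostly for large ratios, were thus hardly at risk in those settings, and their constancy is no test.

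Of 520 recomputed list medians 492 moved by less than the receptor SD over the square root of the list's size. That yardstick of movement treats the genes as independent and is no test. By the mean in place of the median, the values are 0.054 for acute phase genes, 0.067 for type I interferon genes, -0.20 for chemokines and cytokines, 0.11 for Kupffer cells, -0.34 for non-classical monocytes, -0.14 for B and plasma cells, 0.017 for dendritic cells, 0.043 for LXR targets, -0.051 for fatty acid synthesis, -0.11 for ER stress, 0.19 for glycerophosphodiester and lysophospholipid enzymes, and 0.11 and 0.062 for the genes of the study's PCR and array lists. By the mean the lysosome and cathepsin list reverses from 0.05 to -0.14, which *Ctse* brings about. At the stricter level the neutrophil list reverses to -0.47, where 1 gene is left, and the lists of NK cells (-0.20), B and plasma cells (0.16), cholangiocytes (0.044) and cell cycle genes (-0.085) move. Without a filter the dendritic cell list reverses from 0.11 to -0.016 and the NK cell and female-predominant lists are at -0.13 and 0.065. With the mean of all 4 arrays above the level the dendritic cell list reverses to -0.0066 and the female-predominant list is at 0.065. With both male arrays above the level the NK cell and B cell lists are at -0.34 and 0.077. With genes of 1 probe set only, the glucose list is at 0.082 and the ribosomal list at 0.023. For the other moves the cause was not tested. No paired analysis was possible because each group has 1 array and no comparison has a test.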
